A study of Drosophila melanogaster with 4 samples.

Results

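The replication-dependent histone genes of Drosophila melanogaster lie in a tandem array in which each repeat carries copies of the linker histone gene His1 and the core histone genes His2A, His2B, His3 and His4. They were taken as every row of the deposited expression table whose gene name begins with His1:, His2A:, His2B:, His3: or His4:. This gave 111 of 17559 rows, with 23 copies of His1, 20 of His2A, 23 of His2B, 23 of His3 and 22 of His4. RNA came from wing imaginal discs of larvae in the third instar, the pouches of epithelium from which the adult wing and thorax develop. The y w control and the Paip1 mutant had 2 libraries each, and the allele and other markers of the mutant strain are not in the labels. Effects of the Paip1 mutation and of the strain therefore cannot be told apart. The product of Paip1 is a partner of the poly(A)-binding protein, and the comparison asked which transcripts differ when it is mutated. Nothing in the labels says that replicates were collected separately, so p-values reflect the spread among these libraries alone, which may be technical.

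Core histones form the protein spool around which DNA is wrapped in the nucleosome, and the linker histone His1 binds where the DNA enters and leaves it. The array genes are transcribed mainly in S phase, when new DNA has to be packed, and their normal mRNAs end in a stem-loop instead of a poly(A) tail. The stem-loop is bound by Slbp, and the end is cut by a complex that contains the U7 small nuclear RNA. Histones made throughout the cell cycle come from single genes elsewhere in the genome whose mRNAs carry poly(A) tails.

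Values are TPM, a share of transcripts corrected for transcript length and scaled to the library, so levels of different genes can be set side by side. The listed values summed to between 919460 and 996531 TPM per library, and no read depth can be recovered from them. The Paip1 transcript, listed under CG8963, was at 112 and 121 TPM in control libraries 1 and 2 and at 2.37 and 2.22 TPM in mutant libraries 1 and 2. The w transcript was at 0 and 0.04 TPM in the controls and at 1.80 and 2.28 TPM in the mutants, and y was at 8.13 and 3.32 TPM and at 0.95 and 0.38 TPM, so both strain markers named in the control label differ between the groups. All 9 wing disc markers examined were present in every library, with summed levels of 900 and 880 TPM in the controls and 401 and 499 TPM in the mutants, and 7 of the 9 fell (4 of them without any 1 library), beside 29.1% of all tested rows. The median log2 difference over all tested rows was -0.22, which moved to about 0 (-0.0032) when libraries were scaled by median ratios. In RNA from whole discs, fewer cells of a type and less RNA per cell cannot be told apart.

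All 111 copies matched the Ensembl annotation of dm6 and lie on chromosome 2L between positions 21416953 and 21541681, a stretch of 124729 bp. Each copy has a single exon. The copies fall into 23 repeats, each opening with a His1 copy, and 19 of the repeats hold all 5 genes. The median distance from one repeat to the next was 5045 bp, with a largest distance of 14041 bp between repeats 5 and 6. In the annotation, every His1 gene is 1023 bp with a coding length of 768 bp, every His3 gene is 529 bp and every His2B gene is 595 bp. His2A genes run from 476 to 493 bp and His4 genes from 412 to 528 bp. The 4 His4 copies longer than the usual 413 bp were listed at 0 in every library. The copies of a class are near-identical in sequence, and how the authors' counting divided reads among them is not given in the sources used here. Values of single copies are therefore uncertain, and class totals are given first.

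The summed level of the His1 copies was 16.0-fold lower in the mutant discs on the fitted log2(TPM + 1) scale, while the totals of His2A, His2B, His3 and His4 did not pass the test. The His1 total was 128 and 108 TPM in the control libraries and 5.40 and 7.53 TPM in the mutant libraries. The groups lie far apart, with both mutant libraries below both controls. The means were 118 ± 14.1 TPM and 6.47 ± 1.51 TPM (SD, n = 2 per group). With limma over the table in which each class is replaced by its sum, the difference had a standard error of 0.18, a 95% interval from -4.46 to -3.54 and a Benjamini-Hochberg adjusted p of 0.000243. Over the 8566 rows of that fit 29.3% were called lower and 45.1% either way. The call held without any 1 library, with values between -4.21 and -3.79. Among rows of at least 1 TPM, the His1 total ranked above 88.7% and 85.7% of them in the controls and above 17.3% and 21.3% in the mutants.

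Control library 1 also held salivary gland glue transcripts, with a summed level of 3199 TPM against 1.72, 2.13 and 2.87 TPM in control 2 and mutants 1 and 2. Fat body markers summed to 1234 and 483 TPM in the controls and 265 and 36.6 TPM in the mutants. In control library 2 the glue genes Sgs3, Sgs4, Sgs7 and Sgs8 were at or near 0. Its fat body sum was 483 TPM and its His1 total 108 TPM. Adult muscle precursor markers summed to 92.6 and 82.5 TPM in the controls and 29.4 and 40.0 TPM in the mutants, with 3 of 4 lower, of which Him held without any 1 library. Hemocyte markers summed to 124 and 99.7 TPM in the controls and 104 and 133 TPM in the mutants, nearly all of it Ppn. Of 4 tested, 2 were higher, Hml and NimC1, both at or under 3.62 TPM in every library. Neither passed with a pseudocount of 0.5 (limma adjusted p = 0.0548 and 0.0532). Tracheal markers summed to 548 and 560 TPM in the controls and 770 and 865 TPM in the mutants, with 2 of 4 higher and 1 lower, and neuron markers to 18.0 and 14.5 TPM and 10.2 and 10.5 TPM, with 1 of 2 tested lower. Beside these counts, 29.1% of all tested rows were called lower and 15.6% higher. The part of these marker transcripts in the His1 difference was not tested.

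**Figure D1:**
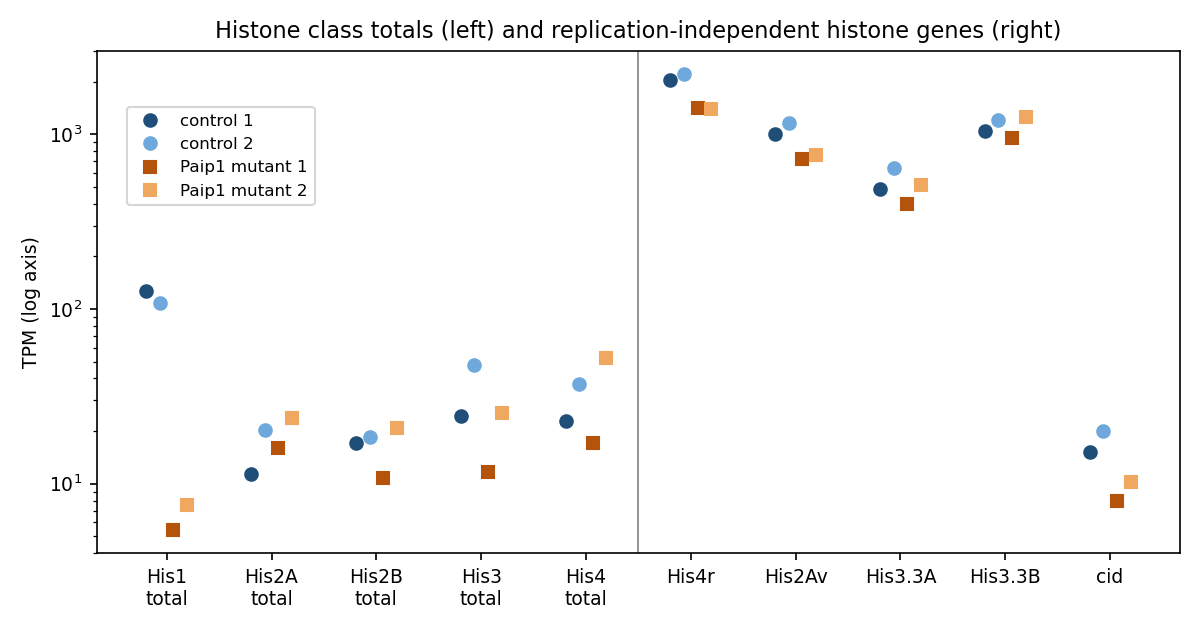
TPM on a log axis for the summed copies of each histone class (left) and for 5 replication-independent histone genes (right), with 1 point per library, circles for control and squares for Paip1 mutant. His1 is the only class total whose groups are separated, at 108 and 128 TPM against 5.40 and 7.53 TPM, while the points of His2A, His2B, His3 and His4 overlap.

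Among the core histones, the His3 total was 24.5 and 47.5 TPM in the controls and 11.6 and 25.2 TPM in the mutants. The log2 difference was -0.95 ± 0.44 (standard error), with a 95% interval from -2.07 to 0.17 and a limma adjusted p of 0.133. Mutant library 2 lies just above control library 1, so the groups overlap. The His4 total was 22.9 and 37.3 TPM in the controls and 17.1 and 52.3 TPM in the mutants, with a difference of 0.04 ± 0.53 and an interval from -1.31 to 1.39 (adjusted p = 0.956). Both mutant libraries lie outside the control values, one below and the other above.

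The His2A total was 11.4 and 20.1 TPM in the controls and 16.0 and 23.7 TPM in the mutants, a log2 difference of 0.34 ± 0.31 with an interval from -0.44 to 1.12 (limma adjusted p = 0.401). The His2B total was 17.1 and 18.5 TPM in the controls and 10.7 and 20.9 TPM in the mutants, a difference of -0.23 ± 0.30 with an interval from -0.99 to 0.53 (adjusted p = 0.552). For both classes that make the H2A-H2B dimer the groups overlap. Without mutant library 2 the His2B total passed the test at -0.68 (adjusted p = 0.0416). These intervals leave room for changes of the core classes in either direction, and each of them lies wholly above the interval of His1.

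The composition of the histone transcripts differed accordingly between the groups. His1 made up 62.7% and 46.6% of all histone array TPM in the controls and 8.88% and 5.81% in the mutants. The ratio of His1 to the sum of the core classes was 1.68 and 0.872 in the controls and 0.0974 and 0.0617 in the mutants. This ratio does not depend on how a library is scaled, and the groups do not overlap. A two-sided exact permutation test gave p = 0.333, the smallest value that 2 libraries against 2 allow. The core classes together stood at 75.8 and 123 TPM in the controls and at 55.4 and 122 TPM in the mutants, which overlap. All 5 classes together took 0.0204% and 0.0232% of the listed TPM in the controls and 0.00661% and 0.0138% in the mutants.

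As listed, the His1 signal of the controls came from few copies. With a line drawn, after the values were seen, at 5 TPM in both control libraries, 8 of the 23 His1 copies stood above it, between 7.78 and 18.2 TPM. The other 15 copies were between 0 and 1.77 TPM in the controls, so no copy lies near the line. These 8 copies summed to 123 and 103 TPM in the controls, 96.3% and 95.5% of the His1 total. In the mutants they summed to 2.03 and 1.56 TPM, 37.6% and 20.7% of the total. The other 15 copies summed to 4.76 and 4.83 TPM in the controls and to 3.37 and 5.97 TPM in the mutants, which overlap. In genome order, the 8 copies belong to repeats 3, 14, 15, 16, 17, 18, 19 and 23, so that 6 of them are neighbours.

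**Figure D2:**
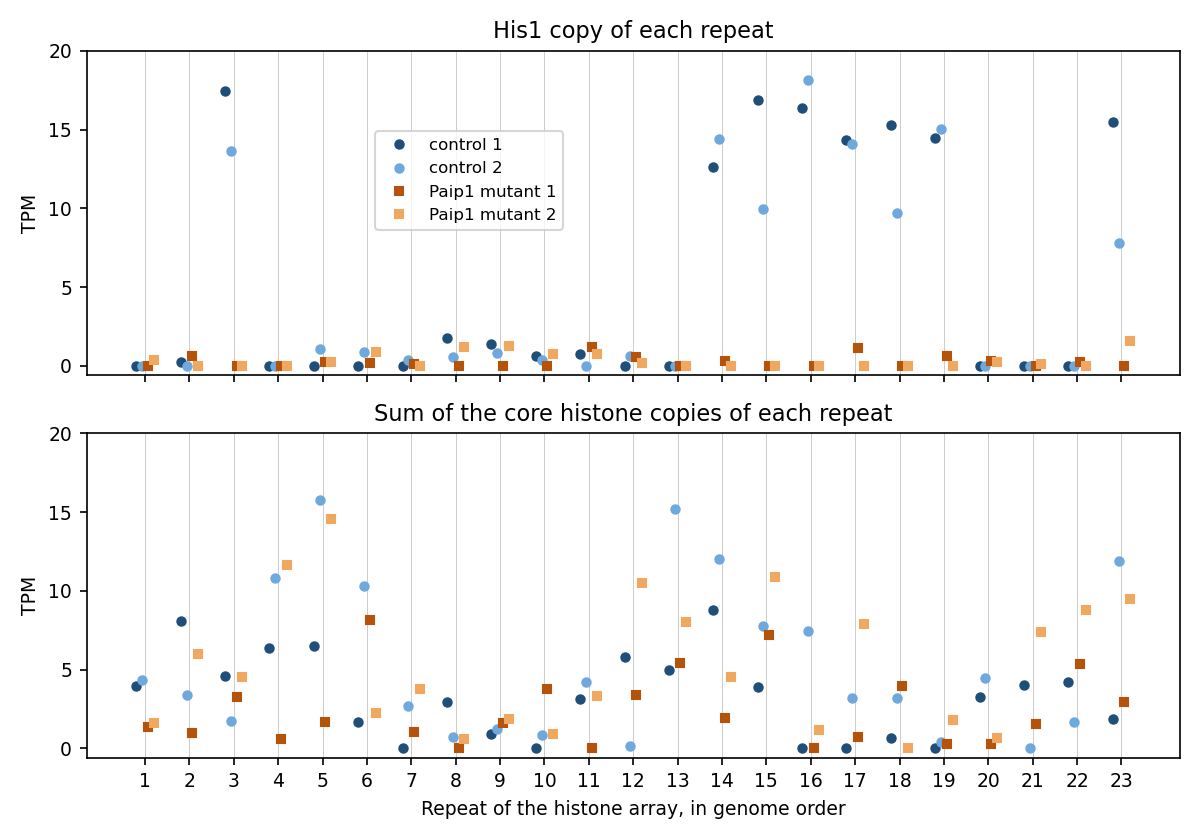
TPM of the His1 copy (top) and of the summed core histone copies (bottom) of each of the 23 repeats in genome order, with 1 point per library. In the controls the His1 copies of repeats 3, 14 to 19 and 23 reach 7.78 TPM or more and all others stay at or under 1.77 TPM, whereas the core copies show no such division and the groups are mixed.

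Each of the 8 copies was called lower in the mutant discs by the fit over single rows. They were picked for high control values and passed the filter through the controls alone, so these calls are a description of the copies and lend no support to the class total. His1:CG33843, in repeat 16, was at 16.4 and 18.2 TPM in the controls and listed at 0 in both mutants (limma adjusted p = 0.000184). His1:CG33804, in repeat 3, was at 17.4 and 13.6 TPM in the controls and also listed at 0 in both mutants (adjusted p = 0.000300). Because values of single copies are uncertain, a listed 0 does not show that a copy is silent. His1:CG33840 was at 16.9 and 9.94 TPM and His1:CG33849 at 15.3 and 9.73 TPM in the controls, again with 0 in both mutants (adjusted p = 0.000938 and 0.000765).

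The remaining 4 kept a low value in a single mutant library. His1:CG33837 went from 12.6 and 14.4 TPM in the controls to 0.31 and 0 TPM in the mutants (limma adjusted p = 0.000497), and His1:CG33852 from 14.4 and 15.0 TPM to 0.62 and 0 TPM (adjusted p = 0.000961). His1:CG33846 went from 14.3 and 14.1 TPM to 1.10 and 0 TPM (adjusted p = 0.00278). His1:CG33864, in the last repeat, was at 15.5 and 7.78 TPM in the controls and at 0 and 1.56 TPM in the mutants (adjusted p = 0.0117). It is the least even of the 8, and its call was lost without control library 1 (adjusted p = 0.0734) or mutant library 1 (0.0681). The other 7 calls held without any 1 library. Because these copies can share reads, the 8 calls are not 8 separate findings.

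The core copies that lie beside these 8 His1 copies showed overlapping groups. The 30 core copies of the same 8 repeats summed to 19.9 and 47.8 TPM in the controls and to 20.2 and 40.2 TPM in the mutants. They made up 26.2% and 38.7% of all core TPM in the controls and 36.4% and 33.0% in the mutants. In repeat 16, whose His1 copy was at 16.4 and 18.2 TPM in the controls, the core copies together were at 0 and 7.47 TPM in the controls and at 0 and 1.15 TPM in the mutants.

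Across all classes, 44 of the 111 copies reached 1 TPM in at least 2 libraries and were tested, namely 10 of His1, 6 of His2A, 7 of His2B, 13 of His3 and 8 of His4. Of these, 15 were called lower, none higher and 29 did not pass the threshold (limma, adjusted p under 0.05). Over all 8605 rows tested, 29.1% were called lower, 15.6% higher and 44.8% either way. The copies called lower were 8 of His1, 1 of His2A, 2 of His2B, 3 of His3 and 1 of His4, so the 7 core calls are among 34 core copies tested. At an unadjusted p under 0.05 there were 18 of the 44, 17 lower and 1 higher, beside 4753 of all 8605 rows either way. The median log2 difference was -3.64 over the tested His1 copies and -0.30 over the tested core copies, beside -0.22 over all rows. Of the 44, 23 passed the filter through the controls alone, among them all 15 called lower, and 7 through the mutants alone. Passing only through the group where a copy is high favours a call in that direction. The 15 calls, their direction and these medians therefore describe the copies tested and are no result about the whole array. Without mutant library 1, 2 of the 7 core calls remained. Without control library 2, 3 remained, and without control library 1, 4 remained.

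**Figure D3:**
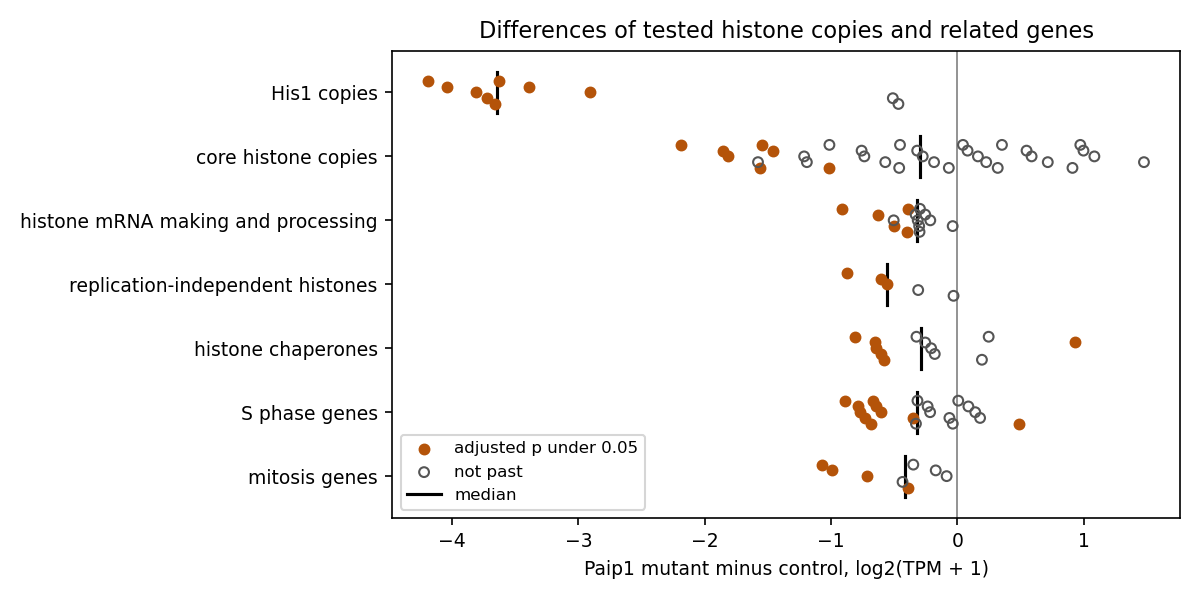
Fitted log2(TPM + 1) difference, Paip1 mutant minus control, for each tested histone copy and each tested gene of 5 related groups, with filled points past an adjusted p of 0.05 and bars at the medians. The His1 copies form a cluster between about -4.19 and -2.91 plus 2 points near -0.5, the core copies spread on both sides of 0, and the related genes lie mostly between -1.07 and 0.93.

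Of the core copies, His2A:CG33838 and His3:CG33857 kept their calls without any 1 library. Both passed the filter through the controls alone, so this stability only describes the copies. His2A:CG33838 was at 3.18 and 3.32 TPM in the controls and at 0.25 and 0.17 TPM in the mutants (limma adjusted p = 0.00418). It lies in repeat 14, beside a His1 copy that fell. His3:CG33857 was at 2.83 and 4.42 TPM in the controls and listed at 0 in both mutants (adjusted p = 0.00442). His3:CG33857 lies in repeat 20, whose His1 copy was at 0 TPM in both controls and at 0.33 and 0.23 TPM in the mutants. For both core copies the mutants lie below the controls.

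The other 5 core calls depended on single libraries. His3:CG31613 was at 2.18 and 1.39 TPM in the controls and at 0 in both mutants (limma adjusted p = 0.0142), a call lost without control library 1 (0.0841) or mutant library 1 (0.0547). His3:CG33809 was at 2.57 and 4.96 TPM in the controls and at 0 and 0.62 TPM in the mutants (0.0159), lost without control library 2 (0.0917) or mutant library 1 (0.0925). His2B:CG33892 was at 1.51 and 2.47 TPM in the controls and at 0 in both mutants (0.0125), lost without control library 2 (0.0777) or mutant library 1 (0.0557). These are copies of a few TPM at most, and each is lower in both mutants. His2B:CG33906 was at 2.13 and 3.95 TPM in the controls and at 0 and 0.82 TPM in the mutants (0.0305). Leaving out control library 1 (0.0714), control library 2 (0.154) or mutant library 1 (0.126) ended its call. His4:CG33909 was at 2.99 and 3.34 TPM in the controls and at 0.64 and 1.59 TPM in the mutants (0.0377), and leaving out the same libraries ended its call too (0.130, 0.167 and 0.0728). Median-ratio scaling also ended the His4:CG33909 call (0.0597).

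Of the core copies with the highest means of their class, His2A:CG33838, His3:CG33809 and His2B:CG33906 were called lower, as given above. The others, none of them called, varied as much within a group as between groups. His4:CG33903 was at 4.01 and 9.24 TPM in the controls and at 1.70 and 11.2 TPM in the mutants (limma adjusted p = 0.749). His4:CG33883 was at 2.82 and 4.83 TPM in the controls and at 3.75 and 9.02 TPM in the mutants (adjusted p = 0.312). His4:CG33887 was at 3.11 and 4.57 TPM in the controls and at 2.86 and 7.14 TPM in the mutants (adjusted p = 0.655). All 3 were highest in mutant library 2, and the groups overlap in each. His4:CG31611 was at 5.93 and 1.98 TPM in the controls and at 0.21 and 4.97 TPM in the mutants (adjusted p = 0.481).

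Among His3 copies, His3:CG33812 was at 2.37 and 5.73 TPM in the controls and at 0 and 3.35 TPM in the mutants (limma adjusted p = 0.237), and His3:CG33866 at 1.06 and 6.30 TPM and at 0 and 1.80 TPM (adjusted p = 0.234). Control library 2 was the highest for both. His3:CG33836 was at 1.87 and 5.49 TPM in the controls and at 1.09 and 0 TPM in the mutants, which do not overlap but missed the threshold (adjusted p = 0.0613). His2A:CG33862 was at 3.67 and 0 TPM in the controls and at 4.40 and 2.89 TPM in the mutants (adjusted p = 0.263). His2A:CG33865 was at 0 and 4.75 TPM in the controls and at 1.96 and 4.24 TPM in the mutants (adjusted p = 0.514), and His2A:CG33835 at 0 and 4.62 TPM and at 1.48 and 0.55 TPM (adjusted p = 0.800). Each of these His2A copies was listed at 0 in a single control library. Among His2B copies, His2B:CG33908 ranged from 0.10 and 2.07 TPM in the controls to 0 and 4.51 TPM in the mutants (adjusted p = 0.768), with both extremes in the mutants. His2B:CG33872 was at 1.66 and 0 TPM in the controls and at 1.57 and 3.13 TPM in the mutants (adjusted p = 0.175). His2B:CG33868 was at 0.82 TPM in both controls and at 0.97 and 3.42 TPM in the mutants. Its groups do not overlap, but it was too low for the filter and was not tested.

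Listed zeros were common throughout the array. Of the 111 copies, 18 were at 0 in all 4 libraries, among them 10 of the 22 His4 copies, and 12 were above 0 in every library. Another 17 copies were above 0 in 1 library, 31 in 2 and 33 in 3. Among core copies, 31 were at 0 in exactly 1 control library and 29 in exactly 1 mutant library, so libraries of a group often disagreed on whether a copy was seen. The number above 0 in both controls and at 0 in both mutants was 11, made up of 4 of His1, 3 of His2B and 4 of His3. The reverse held for 6 copies. How many of all rows showed either pattern was not counted, so these counts are no result about the array. In the whole table, 6366 and 6464 rows were at 0 in controls 1 and 2, and 5158 and 5168 in mutants 1 and 2. Of the 44 tested copies, 18 were lower in both mutants than in both controls and 2 were higher, 52.8% and 25.1% of all tested rows being so.

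**Figure D4:**
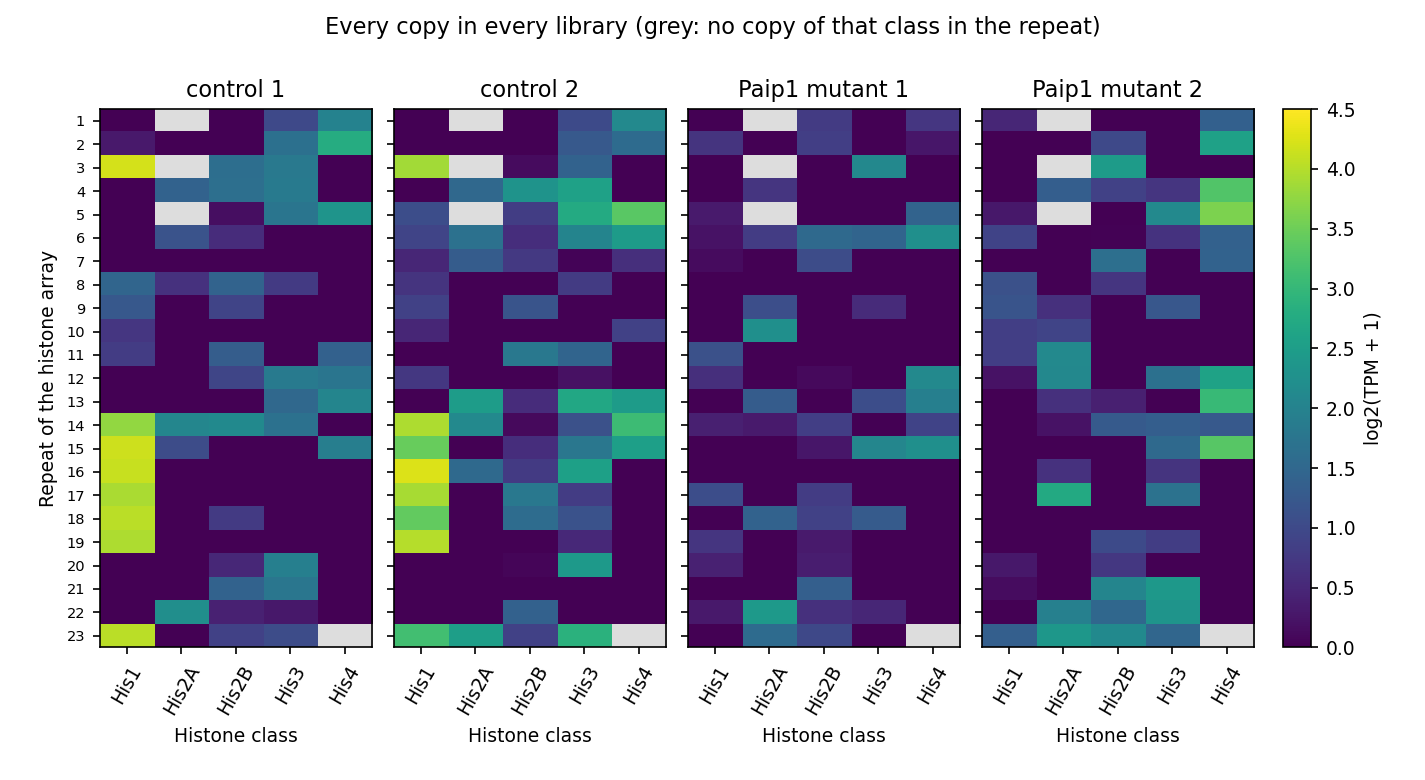
log2(TPM + 1) of each copy in each library, with repeats in genome order from top to bottom, classes from left to right, and grey where a repeat has no copy of a class. The bright His1 column segments at repeats 3, 14 to 19 and 23 recur in both controls and are at 1.56 TPM or less in both mutants, while the pattern of core copies differs from library to library.

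The division of a class total over its copies was more alike in the control libraries for His1 than for the other classes. Across the 23 His1 copies, log2(TPM + 1) in the control libraries had a Pearson r of 0.960, against 0.21 over 20 His2A copies, 0.09 over 23 His2B copies, 0.31 over 23 His3 copies and 0.55 over 22 His4 copies. Between the mutant libraries the His1 value was -0.14 and the His4 value 0.70. By rank (Spearman) the control libraries gave 0.756 for His1. The r of 0.960 spans 8 high and 15 low copies and says little of the order among the 8. All these values are descriptions across copies, which share reads and a library.

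The authors' deposited table, which holds its own comparison, called 9 of the 111 copies, beside 14.1% of the rows it tested. It held no test for the 18 copies at 0 in all 4 libraries. Of the 9 in the authors' deposited table, 6 were His1 copies, all lower and all among the 8 described, with adjusted p between 4.68e-11 for His1:CG33843 and 0.0308 for His1:CG33852. His1:CG33846 and His1:CG33864 did not pass in the authors' comparison (its adjusted p = 0.128 and 0.228). It also called His2B:CG33892 and His3:CG33857 lower. The single copy called higher in the authors' deposited table was His2A:CG33826 (adjusted p = 0.0355), listed at 0 in both controls and at 3.75 and 0.89 TPM in the mutants, which was too low for the filter used here.

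Of the 6 histone genes outside the array, which encode replication-independent histones, His4r, His2Av, His3.3A and His3.3B stood above every class total of the array in each library, and cid and BigH1 did not. His4r, which encodes the same histone H4 protein, was at 2050 and 2227 TPM in the controls and at 1417 and 1393 TPM in the mutants. Its log2 difference was -0.60 ± 0.10 (standard error; limma adjusted p = 0.00915), and the groups do not overlap. The call was lost without control library 1 (0.0632), control library 2 (0.0895) or mutant library 1 (0.0517), and with median-ratio scaling (0.0501). His4r stood 89.7 and 59.7 times above the His4 total in the controls and 82.8 and 26.6 times above it in the mutants.

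His2Av, the H2A variant of chromatin throughout the cell cycle, was at 1006 and 1166 TPM in the controls and at 718 and 757 TPM in the mutants. Its log2 difference was -0.56 ± 0.12 (limma adjusted p = 0.0173). The call was lost without control library 1 (0.0703), control library 2 (0.136), mutant library 1 (0.0874) or mutant library 2 (0.0573), and with median-ratio scaling (0.0602). The centromeric H3 variant cid was at 15.2 and 19.9 TPM in the controls and at 7.98 and 10.2 TPM in the mutants, a difference of -0.88 ± 0.19 (adjusted p = 0.0186). Its call was lost without any 1 library (0.0587, 0.122, 0.111 and 0.0528 in the same order). All 3 were lower in both mutants than in both controls.

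The genes for the H3.3 variant did not pass. His3.3A was at 485 and 641 TPM in the controls and at 396 and 510 TPM in the mutants (limma adjusted p = 0.232), and His3.3B at 1039 and 1201 TPM and at 957 and 1251 TPM (adjusted p = 0.893). The groups overlap for both, and the sign of the small His3.3B difference, -0.03, turned with scaling by median ratios or to a common sum. BigH1, the linker histone of germline and early embryo, was listed at 0 in all libraries except mutant 2, where it was at 0.09 TPM.

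Of 15 genes that make or process histone mRNA, 14 were tested, 5 fell and none rose by limma, beside 29.1% of all tested rows lower and 15.6% higher. At an unadjusted p under 0.05 there were 6 lower, Slbp being the sixth, and none higher, beside 4753 of all 8605 rows either way. The median log2 difference was -0.32 beside -0.22 over all rows. mxc, the scaffold of the histone locus body at the array, was at 21.9 and 22.3 TPM in the controls and at 13.03 and 15.00 TPM in the mutants (limma adjusted p = 0.0148). mute, another histone locus body protein, was at 34.5 and 35.9 TPM and at 22.8 and 26.4 TPM (adjusted p = 0.0260). The cleavage factors CstF64 and Cpsf73 and the cap-binding partner Ars2 also fell (adjusted p = 0.0183, 0.0329 and 0.0418). Slbp, which binds the stem-loop, was at 60.4 and 81.2 TPM in the controls and at 47.0 and 51.3 TPM in the mutants, lower in both mutants but not past the threshold (adjusted p = 0.0599). U7 was listed at 0 in every library. None of the 5 calls held without each of the 4 libraries in turn, the number called lower ranging from 0 to 5, and 2 were called with median-ratio scaling.

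Of 12 histone chaperones tested, 5 fell and 1 rose, with a median of -0.29, beside 29.1% of all tested rows lower and 15.6% higher. DLP fell from 51.9 and 43.7 TPM to 28.1 and 25.4 TPM, XNP from 104 and 97.1 TPM to 68.5 and 64.9 TPM, and asf1, which hands new H3-H4 to the replication fork, from 94.96 and 113 TPM to 61.5 and 74.7 TPM (limma adjusted p = 0.0092, 0.0120 and 0.0278). NASP and Caf1-55 fell as well (adjusted p = 0.0218 and 0.0261). Ssrp, a subunit of the FACT complex that moves nucleosomes aside for polymerases, rose from 172 and 179 TPM to 372 and 300 TPM (adjusted p = 0.00681), a call lost without control library 1 (0.0659) or control library 2 (0.0583). Nap1, the most abundant chaperone here, was at 654 and 633 TPM in the controls and at 765 and 710 TPM in the mutants (adjusted p = 0.167). The FACT partner of Ssrp, dre4, was at 183 and 179 TPM in the controls and at 217 and 213 TPM in the mutants (adjusted p = 0.0914). No chaperone call held without each of the 4 libraries in turn, and the number called lower ranged from 0 to 4. With median-ratio scaling 3 chaperones were called higher and 4 lower, and Nap1 passed (0.0415).

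Of 20 genes of S phase, 9 fell, 1 rose and 10 did not pass, with a median of -0.32, beside 29.1% of all tested rows lower and 15.6% higher. The cyclin CycA was at 151 and 154 TPM in the controls and at 82.9 and 95.1 TPM in the mutants (limma adjusted p = 0.0073), and the licensing inhibitor geminin at 188 and 228 TPM and at 100 and 123 TPM (adjusted p = 0.0110). The helicase subunits Mcm3, Mcm5, Mcm6 and Mcm7 fell, with log2 differences from -0.35 to -0.68. Mcm2 was at 75.8 and 81.9 TPM in the controls and at 79.7 and 94.97 TPM in the mutants (adjusted p = 0.408). The subunit dpa also did not pass, at 88.4 and 108 TPM in the controls and 85.35 and 103 TPM in the mutants (adjusted p = 0.760). PCNA, the sliding clamp, was at 387 and 494 TPM in the controls and at 437 and 493 TPM in the mutants, overlapping groups (adjusted p = 0.665). RnrL rose and RnrS fell (adjusted p = 0.0354 and 0.0302), the large and small subunits of the enzyme that makes deoxynucleotides. No S phase call held without each of the 4 libraries in turn, the number lower ranging from 0 to 7, and 6 were lower with median-ratio scaling. Of 8 mitosis genes 4 fell, beside 29.1% of all tested rows. Among the 4, Cdk1, at 191 and 196 TPM in the controls and 86.7 and 97.3 TPM in the mutants (adjusted p = 0.00254), held without any 1 library.

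The normal mRNAs of the array lack a poly(A) tail, and whether the libraries were selected for poly(A) is not given in the sources used here. Of 36 other RNAs without such a tail in the table, 27 were listed at 0 in all 4 libraries. Of the 8 tested, 2 rose and 3 fell, beside 15.6% and 29.1% of all tested rows. snRNA:7SKa was at 2.97 and 3.08 TPM in the controls and at 10.9 and 9.04 TPM in the mutants (limma adjusted p = 0.0031), and RNaseP:RNA at 0 in both controls and at 2.78 and 5.17 TPM in the mutants (adjusted p = 0.00565). The 3 that fell were snRNA:U12, snRNA:U2:34ABb and snRNA:U2:34ABc. snRNA:U12 was at 40.9 and 108 TPM in the controls and at 9.85 and 0 TPM in the mutants. Both U2 rows were at 36.0 and 9.48 TPM in the controls and at 0 in the mutants. With the same value in every library, the U2 rows are not separate findings. The calls of both that rose held without any 1 library, and those of the 3 that fell did not. RNaseP:RNA passed the filter through the mutants alone, and the 3 that fell through the controls alone. Those calls, their direction and their stability therefore only describe the rows tested. The sum of the 36 was 134 and 162 TPM in the controls and 71.4 and 48.6 TPM in the mutants. The part that selection of RNAs by their tails had in the values of the array was not tested.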

How the data were processed

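The data are 1 table of the whole series with 17559 rows and 1 value per row and library. The authors deposited these values with no unit in the header, and they were taken as TPM. They are fractional, and their sums, 995750 and 996531 in the controls and 919460 and 936038 in the mutants, stay below the nominal TPM total by more in the mutants. The authors' comparison columns hold, per the file headers, the fold (ratio of mutant to control), the log2 of that fold, and a p-value before and after adjustment. The submitters' processing notes name FastQC, TopHat, RSEM and DESeq and the build dm6, with neither roles nor versions. Poly(A) selection, strand and how reads of identical copies were divided: none is given in the sources used here. TPM keeps no depth, so no counting interval was computed and precision rests on 2 libraries per group.

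IDs were matched to Ensembl annotation 115, where 17253 matched and 306 did not. The main test, two-sided, used R 4.3.3 with limma 3.58.1, fitted to log2(TPM + 1) with a trended prior over 8605 rows of at least 1 TPM in at least 2 libraries. A Benjamini-Hochberg adjusted p under 0.05 was called. The pseudocount of 1 makes fold changes of low rows smaller than their true ratio. Residual degrees of freedom were 2 and prior degrees of freedom 3.27. For class totals, the copies of a class were replaced by their sum and the fit repeated over 8566 rows. Shares and ratios were computed in Python 3.11.15 (numpy 2.4.6, pandas 2.3.3, scipy 1.17.1), and figures drawn with matplotlib 3.10.9.

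The members, the lists of genes and the naming rule were chosen with earlier results of these data known. Named were the 4 copies of each class with the highest mean, up to 2 called copies per class and direction with the largest change, all replication-independent histones, and of each related list up to 4 called genes per direction by smallest p and the 2 with the highest mean. Of the related lists, not every gene picked by this rule is printed. Other copies past the threshold, and asf1, Slbp, snRNA:U7, Mcm2, dpa, RnrS and dre4 among others, were named after their values were seen. Alternatives were other pseudocounts, filters, scalings and variance models, each library left out, and a block for the replicate number.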

Additional observations from a re-analysis of the deposited data

How the results depend on the processing

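The His1 total stayed lower and past the threshold in every alternative run, from -4.18 (pseudocount 0.1) to -3.78 (median-ratio scaling) with all libraries, and -2.33 for the mean over copies. Precision rests on 2 libraries per group, and depth is unknown. Copies called higher numbered 0 in the main fit, 3 with no filter (His2B:CG17949, His1:CG33855 and His2A:CG33823), 0 to 2 without 1 library, and 1 with the replicate block (His2B:CG33900). Copies called lower numbered 15, 8 of the 10 left with a mean of at least 5 TPM, 10 to 16 without 1 library and 17 with the block. Over all rows, 1346 were called higher and 2506 lower, 1469 lower with median-ratio scaling, and without 1 library 607 to 1089 higher and 406 to 2184 lower. Over the related lists, 4 were called higher and 29 lower. Median-ratio scaling gave 7 and 19, no filter gave 19 lower, and leaving out 1 library gave 2 to 3 higher and 3 to 21 lower.

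The other class totals, none past the threshold in the main fit, ranged without 1 library from -0.047 to 0.73 (His2A), -0.68 to 0.22 (His2B), -1.48 to -0.42 (His3) and -0.74 to 0.82 (His4). His4 stood at -0.30 without control 1. The replicate numbers carry no stated pairing, and deviations of same-numbered libraries correlated at 0.065. With the replicate block the His3 total, at -0.95, passed (limma adjusted p = 0.00484), as did His3:CG33812 (0.0408), His3:CG33866 (0.0181) and His3.3A (0.0389), and 1403 rows were called higher and 2843 lower.

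Signs turned for single rows that were not called. With a pseudocount of 0.1 this was His2A:CG33835 (0.56). With scaling it was His3.3B (0.20 by median ratios, 0.073 or 0.072 to a common sum with or without the copies) and Clamp (0.19, 0.065 and 0.064). Without 1 library the range was -1.52 to 0.97 for His2A:CG33835, -0.027 to 2.20 for His2A:CG33862, -0.55 to 1.98 for His2A:CG33865, -0.88 to 1.58 for His2B:CG33908, -1.91 to 0.39 for His4:CG31611, -0.31 to 0.77 for His4:CG33887, -1.41 to 0.77 for His4:CG33903, -0.14 to 0.061 for Clamp, -0.22 to 0.16 for His3.3B, -0.089 to 0.26 for PCNA, -0.15 to 0.20 for Ppn and -8.47 to 0.98 for Sgs8. The cause was not tested in any of these cases.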
